A study of Mus musculus with 18 samples.

Results

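The end state of adipogenesis in culture was described by setting the 3 libraries labelled day 8 after the differentiation stimuli (Day8) against the 3 libraries labelled Control, 6 of the 18 libraries of the study, with the groups read from the sample titles. All libraries were made from polyadenylated RNA of 3T3-L1, a mouse embryonic fibroblast line that can be driven to become fat cells. The other 12 libraries (MCE1, MCE2, Day4 and Day6, 3 each) lie between these ends and entered the fit and the account of the course. Per the labels' protocols, cells were grown to confluence in medium with serum and, 2 days later, given insulin at 10 µg/mL, dexamethasone (a synthetic glucocorticoid) at 0.25 µM and IBMX (an inhibitor of phosphodiesterases, which raises cyclic AMP) at 0.5 mM for 48 h, then medium with insulin at 5 µg/mL that was renewed every 2 days. Day8 cells had therefore been in insulin throughout. The protocol runs to day 10, so Day8, the latest group of the study, may lie before its end. The Control label gives no treatment, does not say how long after confluence the cells were taken, and does not call them preadipocytes. Insulin exposure, time in culture and differentiation cannot be told apart between these groups. Both groups are the same cell line. Whether the 3 replicates of a group were grown apart is not in the labels, and the p-values below weigh differences only against the spread of these libraries, which may be technical.

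White fat cells store fatty acids as triglyceride in a lipid droplet, release them by lipolysis when catecholamines raise cyclic AMP, and secrete hormones such as adiponectin and leptin. In 3T3-L1 cells the inducing mixture first switches on C/EBP-beta and C/EBP-delta, which act before C/EBP-alpha and the nuclear receptor PPAR-gamma, the main regulators of fat cell genes. The cells divide for a short time after induction, leave the cell cycle for good, lose the shape and the stress fibres of a fibroblast, and change their matrix.

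The deposited values are TPM, a level per transcript length that is scaled to a fixed total within each library, so levels of different genes can be compared and every value is a share of its library. Differences were tested with limma on log2(TPM + 1) for the 12019 genes that reached 1 TPM in at least 3 of these 6 libraries, out of 25209 genes listed, and a gene is called at a Benjamini-Hochberg adjusted p under 0.05. A log2 difference below is always Day8 minus Control on that scale, which understates the change of genes of low level. The end state differed from Control in most of the transcriptome: 8844 genes were called (73.6% of those tested), 3882 higher (32.3%) and 4962 lower (41.3%), and the ranges of the 2 groups did not overlap for 74.6%. The called difference was at least 1 in size for 1900 genes that were higher (15.8%) and 2132 that were lower (17.7%), at least 3 for 279 higher and 196 lower, and at least 5 for 74 higher and 12 lower. The median difference over all genes tested was -0.12, and scaling the libraries by the median ratio moved it by 0.12, to 0.00, so that 50.4% of the calls were then higher, against 43.9% here. Differences near that size have no firm direction and are given below with the scaling that removes their call. A gene that passes the filter only through the group where it is high had to differ, so the counts by gene list below describe their lists and are no test of them. Each such count is to be read beside the shares over all genes tested, 32.3% called higher and 41.3% called lower.

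**Figure D1:**
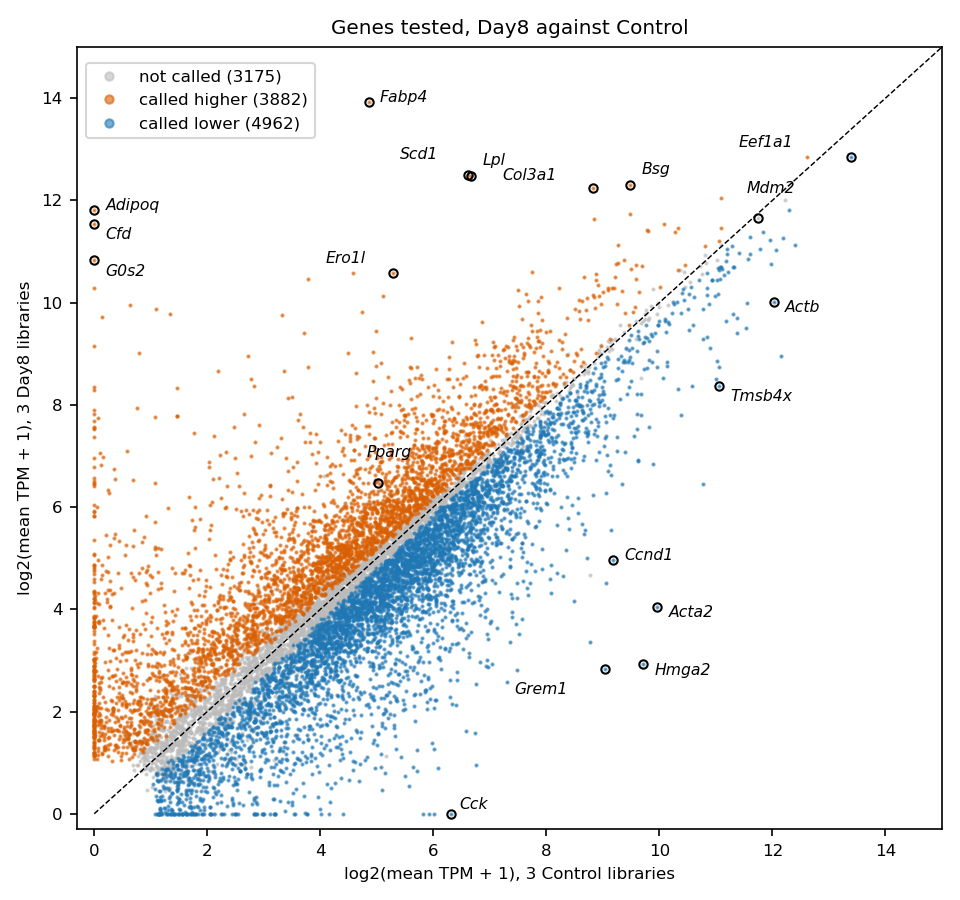
Each point is a tested gene at its log2(mean TPM + 1) in the 3 Control libraries (horizontal) and the 3 Day8 libraries (vertical), coloured by its call, with the diagonal of equal levels dashed and named genes ringed. Fat cell genes such as Adipoq and Cfd stand on the vertical axis, listed at 0 in Control, while Hmga2, Cck, Grem1 and Acta2 lie furthest below the diagonal among the ringed genes.

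The libraries of a group resembled each other closely (Pearson r of log2(TPM + 1) across genes of 0.988 to 0.991 within Control, 0.976 to 0.980 within Day8 and 0.784 to 0.798 between the groups). The listed TPM summed to 872319 to 874183 in Control and 876893 to 880184 in Day8, and read depth is unknown. An entry of 0 can be a failed estimate, because Hmgcs1, an enzyme of cholesterol synthesis that growing cells use, is listed at 0 in all 6 libraries. Such genes are therefore described as listed at 0, with each library's value and no fold. Among genes named below, more than 20% of the 50-base stretches of Acaca, Ccnb1, Eno1, Gapdh, Ldhb, Pcna, Pgk1 and Pkm occur in other genes. More than 20% of the exon bases of Acadvl, Adrb3, Aup1, Ccnd1, Cebpb, Gpat3, Rarres2, Tagln and Vcl lie in exons of other genes. The values of all these genes are less certain. The fibroblast surface protein Thy1 stood at 297, 304 and 305 TPM in Control and 118, 142 and 134 TPM in Day8, and the receptor Pdgfrb at 74.7, 86.3 and 100.1 TPM in Control and 53.4, 48.3 and 40.99 TPM in Day8, so both were lower in Day8 but present. Other fibroblast markers went the other way: mean levels rose for Pdgfra (65.4 to 105 TPM), Col1a1 (1235 to 2681 TPM) and Col3a1 (453 to 4831 TPM). Ly6a, named after its values were seen and not checked for shared sequence, was lower in mean level (145 to 48.8 TPM). Dlk1 was not called, and Cd34, also a marker of preadipocytes in tissue, did not reach the filter. Defining genes of other cell types were at or near 0 in both groups, among them Adgre1 and Ptprc of macrophages, Tie1 and Emcn of endothelium and Myod1 and Myog of muscle. The summed level of the 18 listed macrophage genes was 18.6 to 21.8 TPM in Control and 12.2 to 13.2 TPM in Day8, that of the 14 endothelial genes 2.11 to 3.26 and 1.57 to 2.45 TPM, and that of the 16 bone and cartilage genes 6.95 to 9.08 and 12.9 to 15.9 TPM. The 18 muscle genes summed to 6.42 to 10.5 TPM in Control and 41.4 to 49.1 TPM in Day8, a sum that was mostly Des, and the 13 epithelial genes to 0.216 to 1.36 and 19.8 to 24.5 TPM, mostly the keratins Krt18 and Krt19. Of the macrophage genes 4 passed the filter (0 called higher, 3 lower), and of the epithelial genes 2 (both called higher). The part of such genes in the results below was not tested. In bulk RNA, more cells of a kind and more RNA per cell cannot be told apart, here and in all results below.

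The hormones of fat cells were the clearest gain. Adipoq (chr16:23146609-23158041 on the mm9 build, as all gene positions here) encodes adiponectin, an abundant secreted protein of fat cells. It was listed at 0, 0 and 0 TPM in the 3 Control libraries and at 3518, 3637 and 3626 TPM in the 3 Day8 libraries. Cfd (chr10:79353598-79355400), which encodes adipsin, the protease that starts the alternative complement pathway, went from 0, 0 and 0 to 3209.9, 2606 and 3157 TPM. Retn, encoding resistin, went from 0, 0 and 0 to 1290.4, 1099 and 1356 TPM. In all 3 genes every Control library was at 0 and the 3 Day8 libraries lay close together. They passed the filter through Day8 alone, so no p is given for them or for Lep. Rarres2, encoding chemerin, stood at 0.704, 0.716 and 1.94 TPM in Control and at 854, 1008 and 941 TPM in Day8, a log2 difference of 8.83 ± 0.17 (SE). Leptin was the weak member of this group: Lep was listed at 0, 0 and 0 TPM in Control and at only 6.49, 5.09 and 4.06 TPM in Day8, far under adiponectin on the same per-length scale. Of the 23 secreted factors of fat cells that passed the filter, out of 30 listed, 21 were called higher and 2 lower, with a median log2 difference of 2.99. Among the lower was Ccl2, the chemokine that draws monocytes, at 488, 442 and 377 TPM in Control and 7.86, 9.24 and 10.9 TPM in Day8. Together the listed factors held 0.113% of the listed TPM in Control and 1.35% in Day8.

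**Figure D2:**
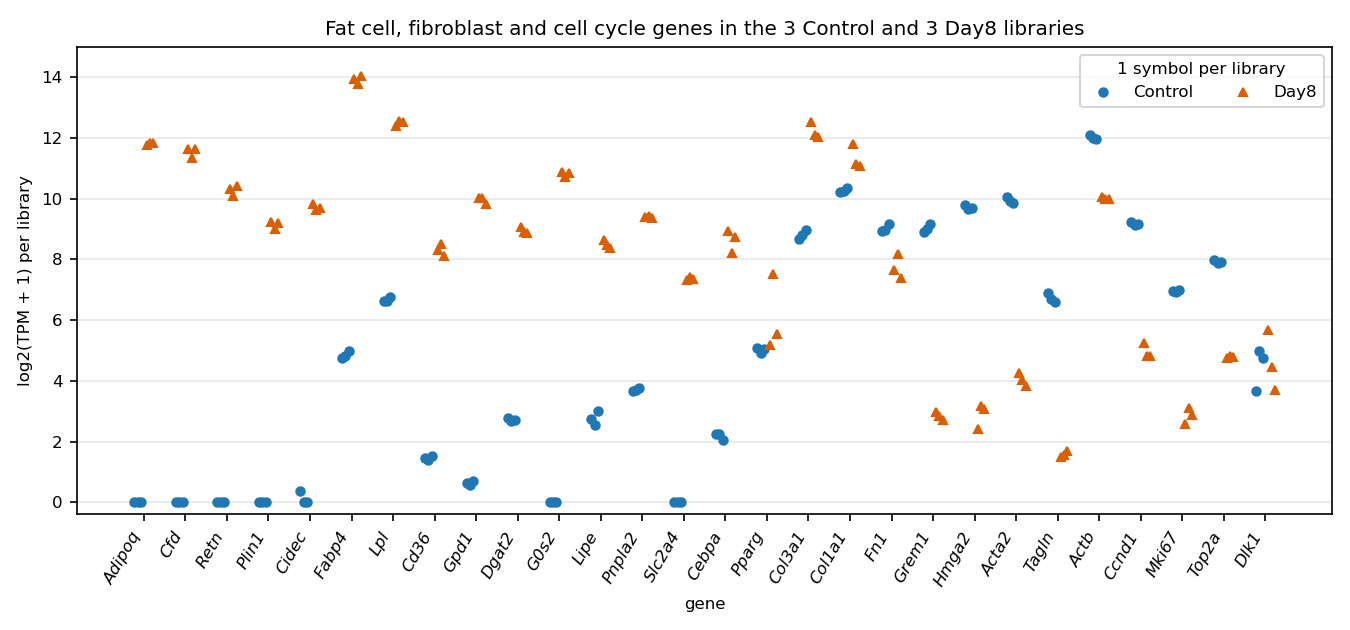
Level of 28 named genes as log2(TPM + 1), with 1 symbol per library (circles, 3 Control libraries; triangles, 3 Day8 libraries). From Adipoq to Cebpa every Day8 library lies above every Control library, from Fn1 to Top2a every Day8 library lies below, and the libraries of Dlk1 overlap.

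Lipid droplet proteins followed the same pattern for the coats that belong to fat cells. Plin1 (chr7:86866050-86877662), the perilipin that guards the droplet against lipases, was listed at 0, 0 and 0 TPM in Control and 606, 518 and 587 TPM in Day8. Cidec, which fuses small droplets into a large one, stood at 0.286, 0 and 0 TPM in Control and 907, 797 and 835 TPM in Day8. Plin4, a coat of nascent droplets, stood at 22.3, 29.04 and 36.8 TPM in Control and 386, 355 and 310.4 TPM in Day8. Plin1 and Cidec (log2 difference 9.60) passed the filter through Day8 alone, so their separation is no test. Plin4 had groups that were far apart, with a log2 difference of 3.55 ± 0.14 (SE). Plin2, the coat found in many cell types, was already at 118, 124 and 126 TPM in Control and rose to 433, 415 and 410.4 TPM, 3.42 times the mean level. Of the 15 droplet genes that passed the filter, out of 20, 12 were called higher and 3 lower (Aup1, Plin3 and Pcyt1a), and the calls of Plin3 and Pcyt1a were lost under median-ratio scaling. Pcyt1a, which makes the phosphatidylcholine precursor of the droplet's surface, also lost its call when any single Control library, or Day8 replicate 1 or 3, was left out (log2 differences of -0.21 to -0.17 with 1 library left out). Plin5, of fat-burning tissues, and Fitm1 did not pass the filter.

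Most adipogenic transcription factors were higher in Day8, some of them by far more than C/EBP-beta and C/EBP-delta, whereas Pparg was not called. Cebpa (chr7:35904312-35906947), which with PPAR-gamma holds the fat cell state, went from 3.80, 3.74 and 3.16 TPM in Control to 488, 298 and 429 TPM in Day8, a log2 difference of 6.45 ± 0.15 (SE) (adjusted p by limma of 4.12e-15). Klf15, a factor that acts late in adipogenesis, was listed at 0, 0 and 0 TPM in Control and 60.1, 68.8 and 65.2 TPM in Day8. Nr1h3, the oxysterol receptor LXR-alpha, went from 4.67, 1.60 and 3.14 to 44.9, 91.97 and 56.4 TPM. These 3 factors were higher in every Day8 library, but Klf15 passed the filter through Day8 alone, so this is no test of it. The early factors rose by less than these 3 genes: Cebpb rose from 244 ± 49.2 to 498 ± 75.1 TPM (SD, n = 3), having stood at 1076 TPM in MCE2, and Cebpd from 23.2 ± 0.796 to 44.6 ± 3.45 TPM (SD, n = 3), having stood at 228 TPM in Day4. Srebf1, the activator of lipogenic genes, rose by a log2 difference of 1.39 ± 0.08 (SE).

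Pparg (chr6:115310969-115440419) was not called. It stood at 32.96, 29.5 and 32.1 TPM in Control and at 35.4, 184 and 45.2 TPM in Day8, so every Day8 library was above every Control library but 1 of them was several times the other 2 (log2 difference 1.06 ± 0.62 (SE), adjusted p by limma of 0.138). Rxrb, a partner of such receptors, was not called either, at a log2 difference of -0.02. Of the 27 adipogenic factors that passed the filter, out of 32, 23 were called higher and 2 lower, and the median log2 difference was 1.06. Klf5, which acts early in adipogenesis, was a clear exception, at 44.9, 43.4 and 40.4 TPM in Control and 3.24, 2.84 and 3.14 TPM in Day8 (log2 difference -3.43 ± 0.13 (SE)). The other lower call, Ebf3 at a log2 difference of -0.55, was lost under both other scalings and without Control replicate 1 or 3 or Day8 replicate 2 or 3 (-0.68 to -0.40 with 1 library left out).

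Fatty acid uptake gave the largest gain in RNA of any lipid pathway described here. Fabp4 (chr3:10204343-10208616), the fatty acid carrier of the fat cell's cytoplasm, stood at 26.2, 27.3 and 30.5 TPM in Control and at 15915, 14156 and 16814 TPM in Day8, 559 times the mean level, with a log2 difference of 9.07 ± 0.09 (SE) (adjusted p by limma of 7.11e-20). Lpl, the lipase that frees fatty acids from lipoproteins, stood at 98.04, 97.7 and 107 TPM in Control and 5348, 5994 and 5846 TPM in Day8. Cd36, a fatty acid transporter, stood at 1.74, 1.65 and 1.87 TPM in Control and 317, 362 and 279 TPM in Day8. The groups were separate by a wide margin in all 3. Within the acyl-CoA synthetases, which trap fatty acids in the cell, Acsl1 rose from 22.97 ± 1.20 to 1523 ± 142 TPM while Acsl5 fell from 77.7 ± 3.66 to 22.9 ± 2.10 TPM (SD, n = 3), and Acsl3 was not called (log2 difference -0.18). Fabp5, the carrier that other cells also use, rose 6.74-fold in mean TPM. Of the 19 uptake genes that passed the filter, out of 21, 12 were called higher and 4 lower, with a median of 1.78. The listed genes held 0.175, 0.178 and 0.181% of the listed TPM in the Control libraries and 3.01, 2.93 and 3.14% in the Day8 libraries.

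Of the fatty acid synthesis genes, the desaturase Scd1, which makes oleate, changed most in TPM: it stood at 94.2, 94.8 and 102 TPM in Control and 5621, 6513 and 5263 TPM in Day8, 59.8 times the mean level (log2 difference 5.88 ± 0.09 (SE)). The core enzymes moved far less. Fasn, the fatty acid synthase, stood at 162, 167 and 178 TPM in Control and 436, 463 and 350.4 TPM in Day8 (2.46 times the mean level), and Acaca, the acetyl-CoA carboxylase that commits carbon to synthesis, at 37.1, 37.04 and 39.7 TPM in Control and 53.6, 61.3 and 46.6 TPM in Day8 (log2 difference 0.49 ± 0.13 (SE)). Thrsp, a regulator of lipogenesis, stood at 0, 0 and 0.154 TPM in Control and 207, 203 and 226 TPM in Day8, and Slc25a1, which exports citrate from mitochondria, rose 5.36-fold in mean TPM. Elovl6, which lengthens palmitate, went the other way, at 36.5, 37.2 and 38.2 TPM in Control and 12.04, 11.98 and 13.2 TPM in Day8 (log2 difference -1.51 ± 0.09 (SE)). In all, 19 of the 23 synthesis genes that passed the filter were called higher and 3 lower, with a median of 0.93, and 2 of the lower calls (Elovl1 and Hsd17b12) were lost under median-ratio scaling.

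Of each of the enzymes from glycerol 3-phosphate to triglyceride, 1 or more forms were higher. Gpd1, which makes glycerol 3-phosphate from a glycolytic intermediate, stood at 0.567, 0.481 and 0.620 TPM in Control and 1044, 1030.1 and 910.1 TPM in Day8. Pck1, which supplies glycerol from pyruvate, was listed at 0, 0 and 0 TPM in Control and 139, 101 and 86.6 TPM in Day8. Dgat2, an acyltransferase of the last step, stood at 5.82, 5.47 and 5.60 TPM in Control and 539, 477 and 472 TPM in Day8. Gpd1 (log2 difference 9.32) and Pck1 passed the filter through Day8 alone, so their separation is no test. Dgat2 was separate between the groups, with a log2 difference of 6.23 ± 0.07 (SE). Dgat1, which catalyses the same step, rose 24.1-fold in mean TPM. For the steps between, Gpat3, an acyltransferase of the first acylation, rose 26.7-fold in mean TPM. Agpat2, the form of the next acyltransferase whose loss causes lipodystrophy, rose 13.8-fold, and Lpin1, a phosphatidate phosphatase that was named after its values were seen, 10.7-fold, whereas Agpat1 was not called (log2 difference 0.00) and Agpat4 was at a log2 difference of -0.26. Of the 18 genes that passed the filter, 12 were called higher and 3 lower (Agpat4, Lpin2 and Gpat4), and none of these 3 lower calls was kept under median-ratio scaling. Without Control replicate 3 or Day8 replicate 3 the call of Lpin2 was lost (log2 differences of -0.31 to -0.18), and that of Gpat4 when any single Control library, or Day8 replicate 2 or 3, was left out (-0.25 to -0.11).

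Genes of lipolysis rose beside those of storage, both the enzymes and their brakes. Pnpla2, the triglyceride lipase, stood at 11.8, 11.9 and 12.6 TPM in Control and 679, 698 and 661 TPM in Day8 (log2 difference 5.70 ± 0.06 (SE)). Lipe, the hormone-sensitive lipase of the next step, stood at 5.72, 4.83 and 6.97 TPM in Control and 400.0, 352 and 335 TPM in Day8. G0s2 (chr1:195098354-195099382), the protein inhibitor of Pnpla2, was listed at 0, 0 and 0 TPM in Control and 1903, 1701 and 1836 TPM in Day8, so its level in Day8 was above that of the lipase it binds. Upstream, the catecholamine receptor Adrb3 was listed at 0, 0 and 0 TPM in Control and 106, 74.9 and 71.9 TPM in Day8, and the lactate receptor Hcar1, which opposes it, at 0, 0 and 0 TPM in Control and 64.5, 64.9 and 49.9 TPM in Day8. Pde3b, through which insulin lowers cyclic AMP, stood at 0.494, 0.699 and 0.643 TPM in Control and 40.03, 35.9 and 34.9 TPM in Day8. Of the 14 lipolysis genes that passed the filter, out of 20, 12 were called higher and 2 lower, Prkar2a, a regulatory subunit of protein kinase A, at a log2 difference of -1.11, and Faf2 at a log2 difference of -0.25, whose call was lost under both other scalings. The median over the 14 was 4.69.

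The RNA of the insulin-responsive glucose transporter was found in Day8. Slc2a4 (chr11:69755788-69761692), which encodes GLUT4, was listed at 0, 0 and 0 TPM in Control and 160.5, 170.3 and 164 TPM in Day8. Trarg1, a protein of the vesicles that carry GLUT4, stood at 0.555, 0.709 and 0.572 TPM in Control and 90.8, 99.8 and 84.3 TPM in Day8, and Sort1, a sorting receptor of the same vesicles, at 2.30, 2.00 and 2.67 TPM in Control and 54.7, 53.9 and 49.9 TPM in Day8. The basal transporter Slc2a1 was higher as well, at 81.2, 80.8 and 77.4 TPM in Control and 206, 208 and 202 TPM in Day8, a log2 difference of 1.35 ± 0.05 (SE). Signalling genes were called in both directions. The receptor Insr rose by a log2 difference of 1.27 and the kinase Akt2 by 0.51, while its relative Akt1 was lower, at a log2 difference of -0.82 ± 0.05 (SE). Grb14, an inhibitor of the insulin receptor, was lower too, at a log2 difference of -1.90 ± 0.11 (SE). Of the 27 genes that passed the filter, 20 were called higher (32.3% over all genes) and 5 lower (41.3% over all genes), with a median of 0.78.

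Genes of carbon metabolism were mostly higher, from glycolysis to mitochondria. In glycolysis and the pentose phosphate pathway, counted as 1 list, 18 of 25 genes that passed the filter were called higher and 4 lower. Aldoa, which splits fructose 1,6-bisphosphate, stood at 421, 431 and 515 TPM in Control and 2895, 2944 and 3668 TPM in Day8, and Pfkl, a form of the rate-limiting phosphofructokinase, at 45.6, 46.3 and 48.1 TPM in Control and 386, 343 and 344 TPM in Day8. The forms of hexokinase went opposite ways: Hk2 rose 6.32-fold in mean TPM while Hk1 fell (log2 difference -0.43 ± 0.09 (SE)). The other lower calls were Eno3 at a log2 difference of -2.07 ± 0.27 (SE), Pkm at a log2 difference of -0.51 and Eno1 at a log2 difference of -0.16, and the call of Eno1 was lost under both other scalings and without Control replicate 1 or Day8 replicate 3 (log2 differences of -0.18 to -0.14). Of the 50-base stretches of transcripts, 34.4% for Pkm and 72.2% for Eno1 also occur in other genes, so both values are uncertain.

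Genes of pyruvate use, the citrate cycle and the respiratory chain rose almost throughout. Pcx, the pyruvate carboxylase that refills the citrate cycle and feeds glycerol and fatty acid synthesis, stood at 23.2, 26.7 and 27.2 TPM in Control and 969, 895 and 836 TPM in Day8, 34.98 times the mean level. Of the 34 genes of pyruvate use and the citrate cycle that passed the filter, 33 were called higher, with a median of 1.57. The other, the dehydrogenase kinase Pdk4 at a log2 difference of -0.37, lost its lower call under both other scalings and without Control replicate 2 or 3 or Day8 replicate 1 or 3 (-0.49 to -0.28). Its relative Pdk1 rose from 13.2 ± 0.411 to 174 ± 10.9 TPM (SD, n = 3). Of the 73 respiratory chain subunits that passed the filter, 66 were called higher and 2 lower, with a median of 1.26. The lower ones, Atp5g1 and Atp5g2, encode the same ring subunit of ATP synthase and lost their calls under median-ratio scaling. That of Atp5g2 was also lost without Day8 replicate 1, and that of Atp5g1 without Control replicate 1 or 2 or Day8 replicate 1 or 2 (log2 differences of -0.59 to -0.26 and -0.36 to -0.30). By complex, 33 of 36 complex I subunits, 9 of 9 complex III genes, 13 of 13 cytochrome c oxidase subunits and 11 of 14 ATP synthase subunits were called higher. The subunits held 2.06, 2.10 and 2.00% of the listed TPM in the Control libraries and 5.00, 4.49 and 5.06% in the Day8 libraries.

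**Figure D3:**
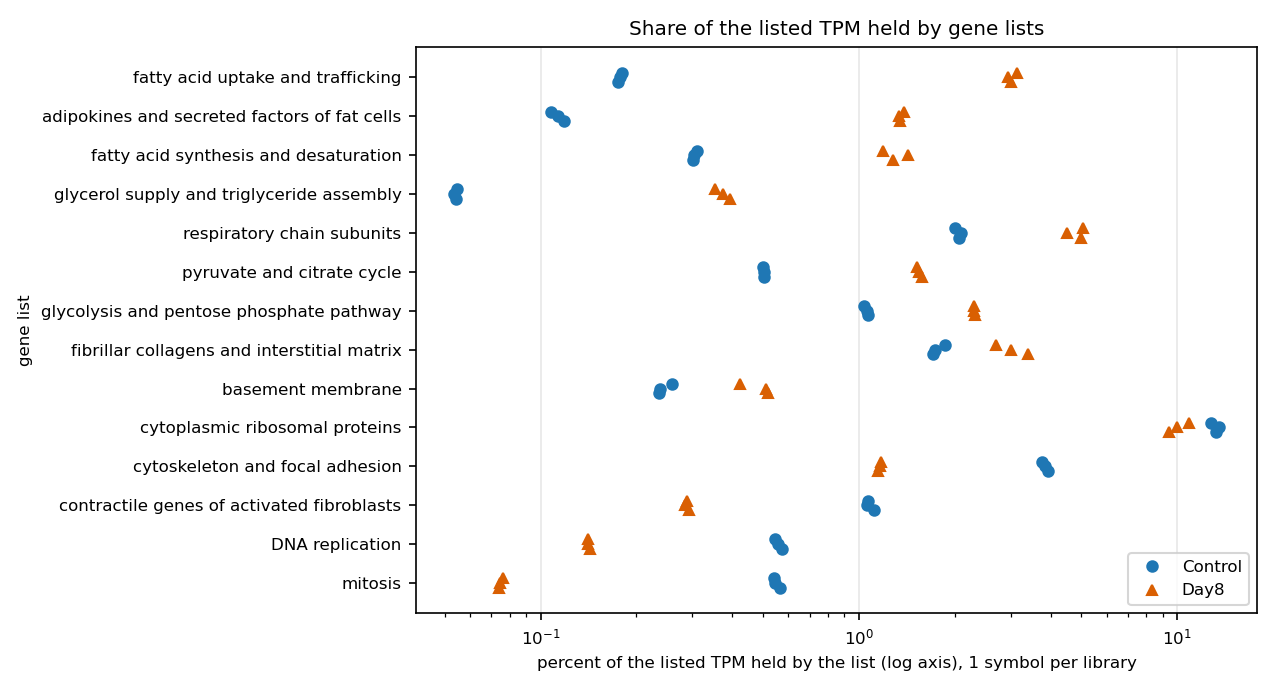
Percent of the listed TPM held by all listed members of 14 gene lists (horizontal, log axis), with 1 symbol per library (circles, 3 Control; triangles, 3 Day8). The groups do not overlap in any of these 14 lists, from mitosis, at 0.551% in Control and 0.0750% in Day8, to fatty acid uptake, at 0.178% and 3.03%.

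Genes of fatty acid oxidation were almost all higher, although the gatekeeper Cpt1a was lower. Of the 34 oxidation and peroxisome genes that passed the filter, 32 were called higher, with a median of 1.89. Acadvl, which begins the oxidation of long chains, stood at 79.01, 80.6 and 79.6 TPM in Control and 645, 558 and 591 TPM in Day8, and Pex11a, which divides peroxisomes, at 5.03, 4.73 and 4.87 TPM in Control and 87.6, 79.9 and 84.7 TPM in Day8. Cpt1a, which admits fatty acids to mitochondria, was the 1 lower call of the list, at 75.8, 79.01 and 84.7 TPM in Control and 23.6, 28.5 and 21.1 TPM in Day8 (log2 difference -1.68 ± 0.10 (SE)). Cpt1b, the muscle and brown fat form, did not pass the filter, and Cpt2, the enzyme that acts after Cpt1, was at a log2 difference of 2.52.

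Breakdown of branched-chain amino acids, a fuel of fat cells, showed opposite changes of the forms of its first enzyme. Bcat2, the mitochondrial aminotransferase, stood at 25.2, 30.4 and 33.4 TPM in Control and 501, 518 and 551 TPM in Day8. Bcat1, the cytosolic form, stood at 67.1, 64.8 and 62.7 TPM in Control and 3.51, 2.87 and 4.56 TPM in Day8. The log2 differences were 4.10 ± 0.08 (SE) and -3.84 ± 0.14 (SE). Downstream, Dbt, the core of the branched-chain dehydrogenase, rose from 3.27 ± 0.925 to 93.1 ± 2.10 TPM (SD, n = 3), and its kinase Bckdk was not called (log2 difference 0.04). Of the 21 genes of the pathway that passed the filter, 19 were called higher and 1 (Bcat1) lower, with a median of 2.10.

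Markers of thermogenic fat gave a mixed picture. Ucp1, the uncoupling protein of brown fat, was listed at 0 in all 6 libraries, as was Prdm16, a regulator of that fate, which does not show that they were absent, and Dio2 reached at most 0.121 TPM in any of them. Only 9 of the 26 listed brown and beige genes passed the filter, and 8 of them were called higher. Those 8 included the oxidase subunits Cox8b, at 0, 0 and 0 TPM in Control and 198, 141 and 219.8 TPM in Day8, and Cox7a1, at 0.920, 0 and 1.15 TPM in Control and 232, 224 and 272 TPM in Day8. Cidea, a droplet protein of brown fat, was listed at 0, 0 and 0 TPM in Control and 4.91, 1.89 and 2.53 TPM in Day8. It was named after its values were seen. Ucp2, which is not specific to brown fat, was not called (log2 difference 0.07).

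Proliferation genes fell together. Of the 50 mitosis genes that passed the filter, 50 were called lower, with a median log2 difference of -2.88 against -0.12 for all genes. Mki67, the antigen used to stain dividing cells, stood at 124, 121 and 126 TPM in Control and 5.01, 7.60 and 6.39 TPM in Day8. Top2a, the topoisomerase that untangles chromosomes, stood at 254, 235 and 240.0 TPM in Control and 25.97, 27.4 and 26.7 TPM in Day8, and Kif23, a motor protein of cytokinesis, at 89.03, 78.6 and 82.6 TPM in Control and 3.84, 3.24 and 3.06 TPM in Day8. In each, every Day8 library was far below every Control library, with log2 differences of -4.10 ± 0.14 (SE), -3.14 ± 0.06 (SE) and -4.27 ± 0.11 (SE). DNA replication followed, with 50 of 55 genes called lower and 1 higher (Orc5, at a log2 difference of 0.49) and a median of -2.18. All 6 subunits of the replicative helicase were called lower, Mcm3 from 177 ± 3.62 to 17.7 ± 1.94 TPM (SD, n = 3). Control did not hold the highest level of the course for Top2a, which stood at 572 ± 26.5 TPM (SD, n = 3) in MCE1. The low level in Day8 was not 0, since Top2a and Pcna remained at 26.7 and 104 TPM.

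A CCAAT box was frequent in the promoters of these mitosis genes. The box (letters CCAAT, on both strands, so that it reads ATTGG where it lies on the other) was looked for in the 250 bases before the start of genes in RefSeq promoters of build GRCm38.p6, in which 9369 of the 12019 genes tested were matched, with 11565 promoters. It occurred in 35 of 45 promoters of mitosis genes (77.8%) and in 36.2% of all promoters of genes tested, and at least 2 times in 48.9% against 13.5%. Among the 200 called genes with the highest log2 difference, 35.6% of promoters held it, and among the 200 with the lowest 43.3%. The share was 52.9% for DNA replication genes and 50% for contractile genes, so the box was not particular to mitosis genes. The promoters of Top2a, Mki67 and Ccnb1 are shown because these genes are among the known markers of dividing cells and hold from 2 to 6 matches. They are written on the strand of the gene, with each match in capitals, and end at the base before the start.
Top2a (chr11:99024190-99024439, - strand): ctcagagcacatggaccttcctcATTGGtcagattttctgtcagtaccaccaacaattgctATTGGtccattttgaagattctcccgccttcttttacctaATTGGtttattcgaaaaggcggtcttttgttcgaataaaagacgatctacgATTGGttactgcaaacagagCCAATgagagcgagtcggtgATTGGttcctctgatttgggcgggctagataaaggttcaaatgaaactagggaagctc
Mki67 (chr7:135716380-135716629, - strand): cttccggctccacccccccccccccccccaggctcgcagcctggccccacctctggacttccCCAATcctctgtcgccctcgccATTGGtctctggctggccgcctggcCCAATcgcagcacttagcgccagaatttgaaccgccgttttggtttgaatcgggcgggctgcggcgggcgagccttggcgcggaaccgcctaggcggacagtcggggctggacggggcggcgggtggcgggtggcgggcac
Ccnb1 (chr13:100786487-100786736, - strand): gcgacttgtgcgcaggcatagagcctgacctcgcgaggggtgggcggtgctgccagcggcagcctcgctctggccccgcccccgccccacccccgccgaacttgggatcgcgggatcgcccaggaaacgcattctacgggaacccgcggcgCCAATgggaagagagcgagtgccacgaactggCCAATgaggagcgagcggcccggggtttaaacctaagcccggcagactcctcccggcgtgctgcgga
Top2a holds 6 matches, 5 of them read as ATTGG, Mki67 holds 3 and Ccnb1 holds 2. Ccnb1, the cyclin that starts mitosis, stood at 184, 175 and 172 TPM in Control and 19.98, 21.1 and 24.6 TPM in Day8. A match describes the letters and is not evidence of a bound factor.

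The regulators of the cell cycle did not all move one way. Ccnd1, the cyclin that carries growth signals to the cell cycle, stood at 603, 561 and 572 TPM in Control and 36.8, 27.02 and 27.1 TPM in Day8 (log2 difference -4.23 ± 0.09 (SE)). Among inhibitors of cyclin-dependent kinases, Cdkn2c rose from 50.8 ± 2.33 to 216 ± 6.99 TPM (SD, n = 3). Cdkn1a, the inhibitor induced by p53, stood at 21.5, 15.3 and 14.3 TPM in Control and 0, 0.536 and 0 TPM in Day8 (log2 difference -3.95 ± 0.86 (SE)). Cdkn1a passed the filter through Control alone, so its difference is no test. Cdkn1b was lower as well, at a log2 difference of -0.37. Myc fell from 40.9 ± 2.83 to 15.3 ± 1.82 TPM and its antagonist Mxd1 rose from 5.31 ± 0.400 to 32.2 ± 1.29 TPM (SD, n = 3). In all, 17 of 31 regulators that passed the filter were called lower (41.3% over all genes) and 11 higher (32.3% over all genes, a similar share). Of the enzymes of nucleotide and one-carbon synthesis, 22 of 27 were called lower, among them Tyms, which makes thymidylate, at a log2 difference of -2.96 ± 0.16 (SE).

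**Figure D4:**
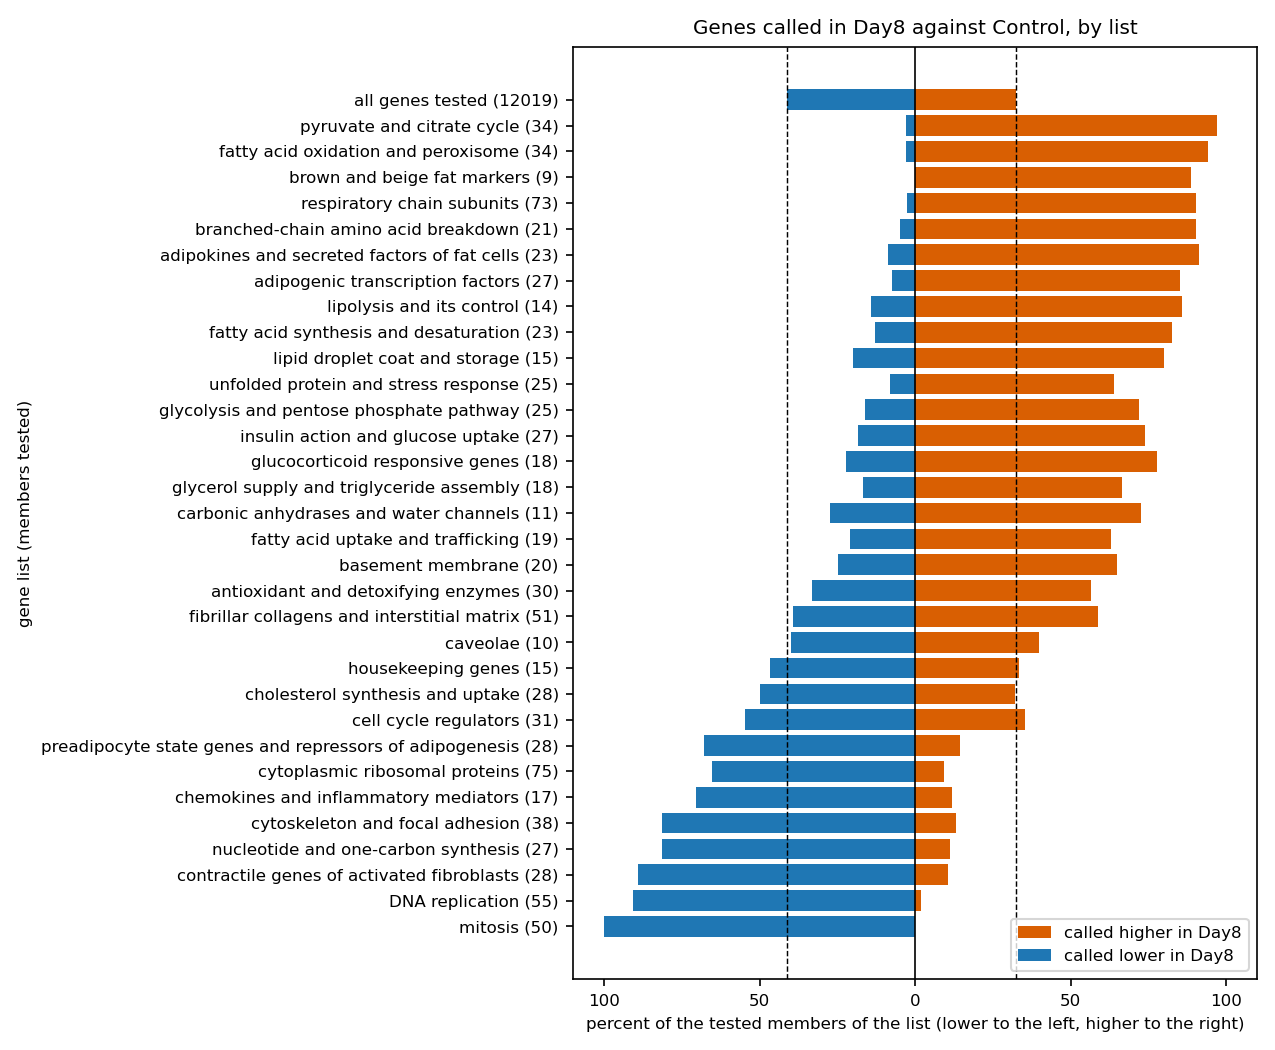
For 32 gene lists, the percent of tested members called lower (left) and higher (right) in Day8 against Control, with the number tested in brackets and all genes tested on top (dashed lines at 41.3% lower and 32.3% higher). Lists of mitochondrial and lipid metabolism lean right, except cholesterol synthesis and uptake, and those of proliferation and contraction lean left.

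The contractile genes of activated fibroblasts fell. Acta2 (chr19:34314826-34329863), smooth muscle actin, stood at 1073, 981 and 933 TPM in Control and 18.1, 15.3 and 13.4 TPM in Day8, 63.99 times lower in mean level (log2 difference -5.92 ± 0.15 (SE), adjusted p by limma of 5.34e-15). Tagln, which stabilises actin bundles, stood at 119, 102 and 96.01 TPM in Control and 1.79, 1.94 and 2.21 TPM in Day8, and Myl9, the light chain of smooth muscle myosin, at 102, 91.2 and 90.8 TPM in Control and 1.68, 2.47 and 2.05 TPM in Day8. Actg2 and Tnnt2, at 58.3, 54.04 and 54.4 and 57.03, 57.1 and 64.6 TPM in Control, were listed at 0 in all Day8 libraries. No Day8 library reached a Control library in any of these 5 genes, but Actg2 and Tnnt2 passed the filter through Control alone, so for them this is no test. Of the 28 contractile genes that passed the filter, 25 were called lower and 3 higher, with a median of -1.81. The higher members were the intermediate filament Des, at 2.82, 2.65 and 3.82 TPM in Control and 44.7, 37.1 and 39.9 TPM in Day8, the myosin Myh11, at 0, 0 and 0 TPM in Control and 4.18, 5.29 and 2.32 TPM in Day8, and the myosin kinase Mylk, at a log2 difference of 1.75 ± 0.12 (SE).

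The CArG box, the element read by serum response factor, occurred in 6 of the 30 promoters matched for this list (20%) and in 1.09% of all promoters of genes tested. Among the 200 called genes with the lowest log2 difference, 2.22% of promoters held it, and among the 200 with the highest 1.13%. The list was written by hand and holds Srf itself, so its share is a description and no test. The 6 promoters with a match are shown because they carry that element. Their genes were picked for the match and not by the size of their change, and each stretch is written on the strand of the gene with the box in capitals.
Myl9 (chr2:156775288-156775327, + strand): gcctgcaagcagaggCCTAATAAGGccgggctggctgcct
Acta1 (chr8:123894824-123894863, - strand): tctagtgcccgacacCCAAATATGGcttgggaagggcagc
Cnn2 (chr10:79988529-79988568, + strand): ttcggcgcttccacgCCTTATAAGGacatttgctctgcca
Myl6 (chr10:128493035-128493074, - strand): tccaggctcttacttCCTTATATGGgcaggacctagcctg
Vcl (chr14:20929156-20929195, + strand): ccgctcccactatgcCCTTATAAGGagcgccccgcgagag
Srf (chr17:46556200-46556259, - strand): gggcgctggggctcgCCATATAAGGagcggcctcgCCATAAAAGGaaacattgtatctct
Their falls differed in size. Myl9 and Acta1, skeletal actin, were at log2 differences of -4.97 ± 0.23 (SE) and -2.36 ± 0.30 (SE). Cnn2, a calponin, stood at 687, 658 and 655 TPM in Control and 129, 131 and 143 TPM in Day8. Vcl, which links actin to adhesions, was at a log2 difference of -1.02, and Myl6, the light chain of nonmuscle myosin, at a log2 difference of only -0.47. Srf, the factor that reads the element, holds 2 boxes before its own start. Srf stood at 61.2, 57.3 and 59.6 TPM in Control and 25.2, 24.6 and 20.9 TPM in Day8, and its partner Mrtfa was at a log2 difference of -1.45. A match is not evidence of a bound factor, and a link between the element, Srf and these falls was not tested.

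The general cytoskeleton was lower as well. Actb (chr5:143664794-143668433), beta-actin, stood at 4383, 4083 and 4052 TPM in Control and 1055, 1026 and 1008 TPM in Day8, 4.05 times lower in mean level. Tmsb4x, which binds free actin, stood at 2224, 2164 and 2011 TPM in Control and 321, 311 and 355 TPM in Day8, and Vim, the intermediate filament of fibroblasts, at 5357, 5388 and 5464 TPM in Control and 2205, 2257 and 2282 TPM in Day8. All 3 were separate between the groups. Of the 38 cytoskeleton and adhesion genes that passed the filter, 31 were called lower and 5 higher, with a median of -1.56, and all 10 tubulins tested were called lower. The 5 higher members were all integrin chains: Itga7, a receptor for laminin, at 0.466, 0.673 and 0.312 TPM in Control and 47.6, 36.8 and 28.1 TPM in Day8, and Itga1, Itga6, Itga11 and Itgb5 at log2 differences of 1.32, 1.18, 0.90 and 0.40. The last 2 of these were named after their values were seen. Itga5, the fibronectin receptor, was lower, at a log2 difference of -1.48 ± 0.06 (SE). The list held 3.93, 3.83 and 3.75% of the listed TPM in the Control libraries and 1.15, 1.16 and 1.17% in the Day8 libraries.

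Matrix genes went both ways, with fibrillar collagens higher and fibronectin lower. Col3a1 (chr1:45368383-45406551), the fibrillar collagen of soft tissue, stood at 403, 449 and 506 TPM in Control and 5873, 4434 and 4186 TPM in Day8, 10.7 times the mean level (log2 difference 3.40 ± 0.10 (SE)). Col1a1, the main fibrillar collagen of most connective tissue, rose less, from 1182, 1209 and 1313 to 3569, 2289 and 2186 TPM. Fn1, fibronectin, fell from 488, 499.6 and 577 to 201, 289 and 167 TPM (log2 difference -1.28 ± 0.16 (SE)). Day8 replicate 1 was the highest of its group for both collagens. Of the 26 collagen chains tested, 19 were called higher and 5 lower (6 under quantile normalization), and each of the 3 chains of type VI and of the 3 tested of type IV was higher. The small proteoglycan Lum, which spaces collagen fibrils, stood at 0, 0.221 and 0.139 TPM in Control and 133, 121 and 121 TPM in Day8, and Dcn, of the same family, rose 13.2-fold in mean TPM. Among the losses were Col8a1, at a log2 difference of -3.66 ± 0.11 (SE), and Ccn1, a matricellular protein induced by stretch, at a log2 difference of -4.02 ± 0.13 (SE). Col8a1 passed the filter through Control alone, so its difference is no test. In all, 30 of 51 interstitial matrix genes that passed the filter were called higher (32.3% over all genes), with a median of 0.82. The 20 called lower were near the share over all genes of 41.3%.

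Basement membrane genes, which encode the sheet that surrounds each fat cell in tissue, were mostly higher. Col4a1 stood at 466, 468 and 509 TPM in Control and 1477, 1307 and 1116 TPM in Day8, below the 2450.3 ± 167 TPM (SD, n = 3) of MCE1. Col15a1, a collagen that anchors this sheet, stood at 2.74, 3.75 and 3.57 TPM in Control and 183, 173 and 145 TPM in Day8, and Lama4, a laminin chain of fat cells, at 43.7, 40.5 and 47.1 TPM in Control and 183, 222 and 170.0 TPM in Day8. Of 20 genes that passed the filter, 13 were called higher (32.3% over all genes) and 5 lower (41.3% over all genes). The lower count was 3 without Control replicate 3 or Day8 replicate 3. Among the lower was Nid1, a linker of laminin and collagen, at a log2 difference of -0.56 ± 0.11 (SE), while its relative Nid2 was at a log2 difference of 3.44 ± 0.10 (SE).

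Most genes of the preadipocyte state and repressors of adipogenesis were lower, with exceptions among the best known. Grem1 (chr2:113588832-113598805), which blocks bone morphogenetic proteins, stood at 483, 515 and 576 TPM in Control and 6.83, 6.14 and 5.49 TPM in Day8 (log2 difference -6.20 ± 0.12 (SE)). Id2 and Id3, which hold back helix-loop-helix factors, fell, Id3 from 271 ± 6.80 to 18.9 ± 1.13 TPM (SD, n = 3) and Id2 from 110.4, 98.5 and 113 to 1.94, 0 and 0.863 TPM. Hmga2, a chromatin protein of embryonic and dividing cells, fell from 892, 807 and 821 to 4.30, 8.05 and 7.37 TPM, the most negative log2 difference among the genes named here (log2 difference -6.83 ± 0.26 (SE)). Dlk1, the membrane protein for which preadipocytes are known, was not called: it stood at 11.7, 30.4 and 25.8 TPM in Control and 50.1, 20.9 and 12.04 TPM in Day8, and the groups overlapped (log2 difference 0.15 ± 0.76 (SE), adjusted p by limma of 0.867). Pdgfra, a receptor of progenitor cells, was higher, at 78.3, 73.9 and 43.9 TPM in Control and 113, 114 and 88.3 TPM in Day8. Ddit3, the stress factor CHOP, which can block C/EBP proteins, was higher too, at 108, 105 and 103 TPM in Control and 565, 654 and 628 TPM in Day8. Of the 28 genes of this list that passed the filter, 19 were called lower and 4 higher, with a median of -0.92. The other higher calls were Twist1, at a log2 difference of 0.19, which was named after its value was seen, and Klf2, at a log2 difference of 0.41, a call that was lost without Control replicate 1 or 2 or Day8 replicate 1 (0.25 to 0.52).

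Chemokines and other inflammatory mediators were lower in Day8, with 12 of 17 that passed the filter called lower and 2 higher. Ccl7, which attracts monocytes as Ccl2 does, stood at 341, 314 and 287 TPM in Control and 28.5, 20.9 and 23.1 TPM in Day8. Csf1, the growth factor of macrophages, stood at 359, 326 and 330.3 TPM in Control and 47.9, 46.95 and 43.8 TPM in Day8. The higher members were the acute phase protein Saa3, listed at 0, 0 and 0 TPM in Control and 8.90, 5.13 and 4.01 TPM in Day8, and Ptges, which makes prostaglandin E2, at a log2 difference of 1.32 ± 0.05 (SE), although Ptgs2, the enzyme before it, was lower, at a log2 difference of -3.72 ± 0.19 (SE). Cxcl12 was not called (log2 difference 0.03). The number called higher was 4 with median-ratio scaling and 1 to 6 over all alternatives.

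Genes of the ribosome differed by less. Of the 75 cytoplasmic ribosomal proteins that passed the filter, 49 were called lower and 7 higher, 39 and 7 under median-ratio scaling, with a median of -0.39. Rpl12 stood at 4227, 4361 and 4169 TPM in Control and 2142, 1879.6 and 2240.3 TPM in Day8, whereas Rps14 rose from 2139, 2291 and 2120.0 to 2955, 2466 and 3045 TPM. Many of these genes have near-identical copies, so single members are uncertain. The mitochondrial ribosomal proteins went the other way, with 46 of 77 called higher and 9 lower, 51 and 3 under median-ratio scaling.

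Genes often used as references were called about as often as all genes. Of 15 tested, 7 were called lower (41.3% over all genes) and 5 higher (32.3% over all genes), including Actb (log2 difference -2.02 ± 0.05 (SE)), Polr2a, the large subunit of RNA polymerase II (log2 difference -1.81 ± 0.13 (SE)), Gapdh (log2 difference 0.95 ± 0.10 (SE)) and Pgk1 (log2 difference 1.66 ± 0.07 (SE)). In Pgk1 and Gapdh, 68.0% and 27.2% of the 50-base stretches occur in other genes. B2m, at 1348, 1396 and 1392 TPM in Control and 1354, 1728 and 1549 TPM in Day8, was not called (log2 difference 0.16) but was called higher under median-ratio scaling.

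Genes that respond to glucocorticoids were mostly higher than in Control, although the protocol gave dexamethasone for 48 h only, and several had stood far higher before. Fkbp5, a classical glucocorticoid target, stood at 611 TPM in MCE2 but at 51.2, 49.2 and 52.3 TPM in Control and 35.4, 38.9 and 39.9 TPM in Day8, a fall of small size (log2 difference -0.41 ± 0.08 (SE)). Lcn2, a lipocalin of the acute phase, stood at 801 ± 79.4 TPM (SD, n = 3) in MCE1 and at 84.7, 119 and 114 TPM in Day8, still above Control at 0.486, 0 and 0.340 TPM. Glul, the glutamine synthetase, was at 783 ± 38.8 TPM in Day4 and 309 ± 14.8 TPM in Day8 (SD, n = 3), against 37.1 ± 0.167 TPM in Control. Of 18 such genes that passed the filter, 14 were called higher (32.3% over all genes) and 4 lower (41.3% over all genes). The list held 0.119% of the listed TPM in Control, 0.673% in Day4 and 0.300% in Day8.

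Genes of protein folding and redox balance in the endoplasmic reticulum included a large gain of Ero1l, with smaller ones around it. Ero1l, the oxidase that drives disulfide bonds, stood at 38.5, 35.1 and 40.8 TPM in Control and 1441, 1687 and 1444 TPM in Day8 (log2 difference 5.28 ± 0.13 (SE)). Hspa5, the main chaperone there, rose 2.96-fold in mean TPM and Xbp1, a factor of the unfolded protein response, rose from 27.4, 54.5 and 47.2 to 249, 240.0 and 232 TPM. The chaperones Calr and Pdia6 were not called (log2 difference -0.05 and -0.08). In all, 16 of 25 genes of this list were called higher and 2 lower, with a median of 0.30. Among antioxidant enzymes, 17 of 30 were called higher (32.3% over all genes) and 10 lower (41.3% over all genes). Hmox1, which degrades haem, rose from 272, 223 and 217 to 979, 1222 and 1088 TPM. Nqo1, a quinone reductase, fell from 162, 169.6 and 166 to 15.4, 20.95 and 19.9 TPM.

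The sterol exporters named here were higher. The exporters Abca1 and Abcg1, targets of LXR, rose, Abca1 from 2.77, 4.41 and 4.84 to 63.5, 70.7 and 54.02 TPM and Abcg1 from 0.233, 0.511 and 0.399 to 20.8, 20.9 and 19.2 TPM. Insig1, which restrains sterol synthesis, was higher, at a log2 difference of 2.19 ± 0.06 (SE). Of the 28 genes of synthesis and uptake that passed the filter, 9 were called higher and 14 lower (10 and 11 under median-ratio scaling), near the shares over all genes of 32.3% and 41.3%. Those called lower included Soat1, which esterifies cholesterol, at a log2 difference of -1.29 ± 0.09 (SE). Water and glycerol channels went opposite ways: Aqp7, which lets glycerol out of fat cells, was listed at 0, 0 and 0 TPM in Control and 25.8, 30.2 and 26.5 TPM in Day8, while the water channel Aqp1 fell from 528, 528 and 542 to 18.3, 23.2 and 24.4 TPM (log2 difference -4.55 ± 0.08 (SE)). Carbonic anhydrase 3, abundant in fat tissue, was listed at 0, 0 and 0 TPM in Control and 206, 183 and 160.1 TPM in Day8. Of the 11 carbonic anhydrases and water channels that passed the filter, 8 were called higher and 3 lower. Of 10 genes of caveolae, the membrane pits that are dense in fat cells, 4 were called higher and 4 lower, near the shares over all genes of 32.3% and 41.3%. The main coat genes Cav1 and Cavin1 were not called (log2 differences of -0.06 and -0.06).

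Counted as genes that switched, 117 were under 1 TPM in all Control libraries and at least 10 TPM in all Day8 libraries, and 21 did the reverse. Of these, 55 were listed at 0 in all Control libraries and 9 at 0 in all Day8 libraries. Besides those named above, the gains included Apoc1, an apolipoprotein, at 312, 346 and 312 TPM in Day8, and Adig, adipogenin, at 334, 259 and 341 TPM in Day8, both listed at 0 in all Control libraries. Enpp2, autotaxin, did not meet the limit of 1 TPM but stood at 0.906, 1.76 and 1.89 TPM in Control and 858, 926 and 828 TPM in Day8. Cck, a peptide hormone, was among the losses, at 81.2, 79.7 and 73.3 TPM in Control and listed at 0 in all Day8 libraries.

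Day8 was the extreme of the course for most genes with a difference of at least 1, but not for most of all those called lower. Of the 3882 called higher 2193 (56.5%) had their highest mean in Day8, and of the 4962 called lower 2278 (45.9%) had their lowest mean there. These genes were called on the same Day8 and Control values, so Control could not be the extreme and the choice favours Day8. The shares here describe the called genes and are no test of the course. Of the 1900 genes higher by at least 1, 1212 (63.8%) had their highest mean in Day8, 350 (18.4%) in Day6 and 205 (10.8%) in Day4. Of the 2132 lower by at least 1, 1181 (55.4%) had their lowest mean in Day8, 319 (15%) in Day4 and 283 (13.3%) in MCE2. Pck1 had its highest mean in Day8, going from 28.99 ± 1.63 TPM in Day6 to 109 ± 26.9 TPM in Day8 (SD, n = 3). Fabp4 was past its highest mean, at 19239 ± 1202 TPM in Day6 and 15628 ± 1352 TPM in Day8 (SD, n = 3). Contractile genes had reached their low level by MCE2, at 0.271% of the listed TPM against 1.08% in Control and 0.288% in Day8. Differences between Day6 and Day8 were not tested.

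**Figure D5:**
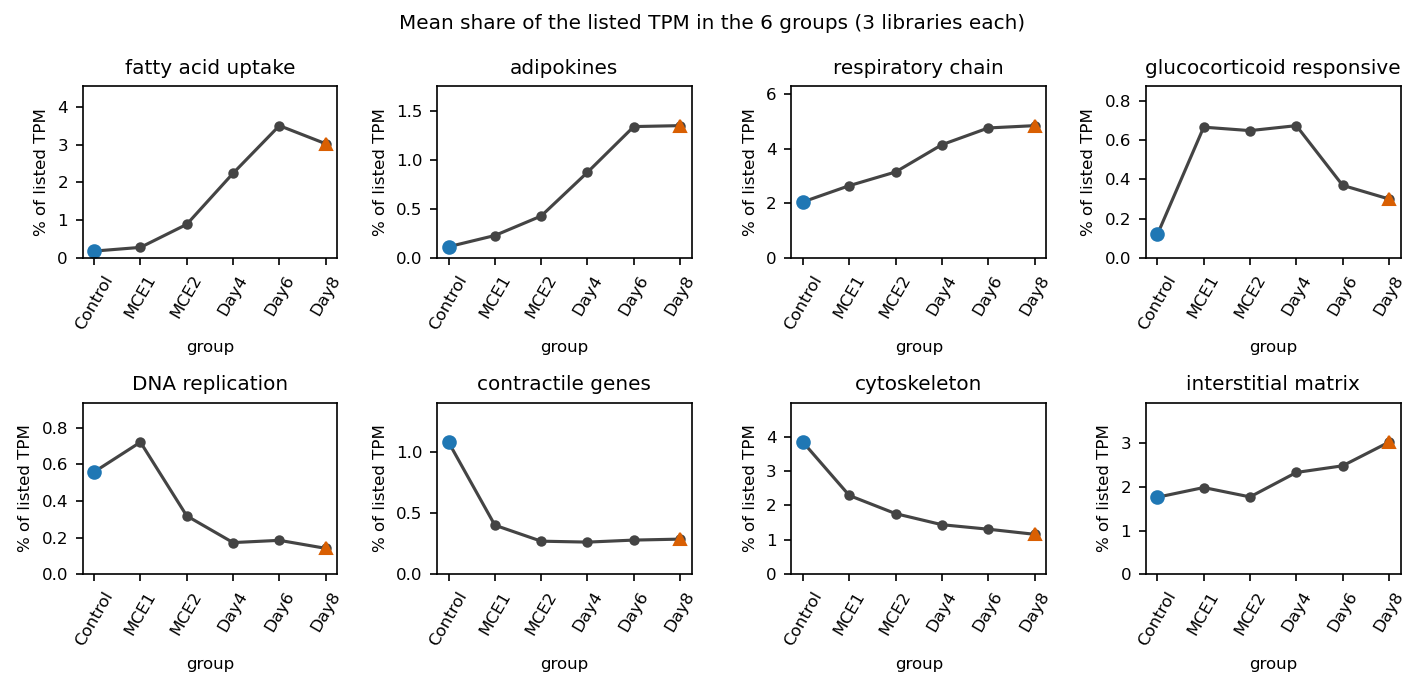
Mean percent of the listed TPM held by 8 gene lists in the 6 groups of 3 libraries, with Control as a blue circle and Day8 as an orange triangle (each vertical axis starts at 0). Fatty acid uptake is highest in Day6, at 3.51%, DNA replication is highest in MCE1, at 0.722%, and glucocorticoid responsive genes are at 0.300% in Day8, between their 0.119% in Control and 0.673% in Day4.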

How the data were processed

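Polyadenylated RNA of 18 libraries was sequenced by the authors, who deposited TPM per gene and gene positions, 1 table per library. Per the submitters' processing notes, the tools were FastQC, cutadapt, HISAT2 and StringTie and the build mm9; their versions, the annotation and the read depth are not given in the sources used here. The labels name no stranded kit, so overlapping and antisense genes cannot be told apart. 12 genes listed at another locus in Control replicate 1 were left out. Genes that reached 1 TPM in 3 or more of the 6 Control and Day8 libraries were tested on log2(TPM + 1), pseudocount 1, with limma 3.58.1 in R 4.3.3 (trend and robust): 1 mean for each of the 6 groups, all 18 libraries in the fit, contrast Day8 minus Control, 2-sided, Benjamini-Hochberg over the 12019 genes. The fit was tried on simulated data in which 200 genes changed, far fewer than were called here, so that trial does not cover a change this broad.

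Lists were described by counts and medians, with no test of their own, and a share is the summed TPM of a list over the listed TPM of a library. Genes were named by these rules: 40 defining genes; the 12 highest and 12 lowest called log2 differences with at least 10 TPM; the 12 largest gains and losses in TPM; and in each of the 37 lists up to 5 called members, 3 against the list's direction and 2 not called. Other list members that are named (Acta1, Cnn2, Myl6, Vcl, Srf, Mrtfa, Ccnb1, Slc2a1, Insr, Akt2, Cpt2, Cdkn1b, Thy1, Pdgfrb, Dcn, Itga5, Hspa5, Eno1, Agpat2) and the families counted by symbol were chosen after their values were seen. The members and lists were chosen with earlier results of these data known. Sequences come from RefSeq promoters of GRCm38.p6. Of 8 motifs searched in them, the CCAAT and CArG boxes are reported, chosen after the shares were seen. Alternatives were a pseudocount of 0.1, other filters (none, 5 TPM), median-ratio and quantile scaling, fewer libraries, a replicate block, array weights and a log2 minimum of 1.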

Additional observations from a re-analysis of the deposited data

How the results depend on the processing

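The number of genes called was within 1.5 times of 8844 under 16 of 17 alternatives (7668 to 9940), as were the 3882 higher (3259 to 4470) and 4962 lower (4395 to 5595). Leaving out each library in turn gave 8431 to 8676 called, 3657 to 3800 higher and 4653 to 4958 lower. The exception was built to be stricter: asking also for a log2 difference of at least 1 left 4032 called, 1900 higher and 2132 lower. Of 332 named genes with a test, 23 lost a call under at least 1 alternative and 30 gained one. Calr, not called here at a log2 difference of -0.05, was called higher under quantile normalization, at 0.19. The cause was not tested. Same-numbered Control and Day8 libraries did not deviate together (r of -0.024, -0.026 and -0.088), so the numbers were not taken to pair them. The replicate block gave 8842 called, 3877 higher and 4965 lower; with the 6 libraries alone, an alternative chosen after seeing the data, it gave 8202. TPM without counts sets no limit of detection, so a gene listed at 0 cannot be called absent.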

Other observations

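Bsg and Ldha, which serve the making and export of lactate, were abundant and higher in Day8. Bsg, the chaperone of lactate transporters, stood at 699.6, 724 and 709 TPM in Control and 4999, 5023 and 5197 TPM in Day8, and at 2374 ± 219 TPM in Day6 (SD, n = 3). The lactate dehydrogenase Ldha stood at 1114, 1106 and 1025 TPM in Control and 3067, 2901 and 2949 TPM in Day8. In Bsg and Ldha every Day8 library was above every Control library. Ldhb, the other lactate dehydrogenase form, rose more in mean level, from 41.7 to 324 TPM (7.79-fold, against 2.75-fold for Ldha). The direction of lactate use was not tested.

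Mdm2, which degrades p53, and Cdkn2a, the locus of p16 and p19ARF, were high in both groups and not called. Mdm2 stood at 3487, 3244 and 3512 TPM in Control and 3191, 3474 and 2986 TPM in Day8, and Cdkn2a at 398, 410.2 and 421 TPM in Control and 496, 316 and 402 TPM in Day8. Trp53 itself, chosen after its value was seen, stood at 301, 281 and 285 TPM in Control and 50.2, 48.6 and 49.5 TPM in Day8 (log2 difference -2.52 ± 0.06 (SE)).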
